A study of Homo sapiens with 11 samples.

Results

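The genes described here encode the subunits of respiratory chain complexes I to IV. They were chosen by name: protein-coding genes whose name in the RNA-seq data begins with NDUFA, NDUFB, NDUFC, NDUFS, NDUFV, UQCR, COX4I, COX5, COX6, COX7, COX8, MT-ND, MT-CO or MT-CYB, or is SDHA, SDHB, SDHC or SDHD, with the NDUFAF assembly factors left out. The rule took 82 of 19659 protein-coding genes, 71 of them nuclear and 11 mitochondrial. It uses names alone and no measured value. Before the filter on gene type it took 187 names, of which 102 belonged to pseudogenes and 3 to antisense RNAs. By lists written for this work, the 71 nuclear genes fell into 14 core subunits, 47 accessory subunits, 9 genes of an isoform list (tissue-restricted isoforms, a retrocopy and a readthrough gene) and 1 readthrough gene that carries the name SDHD.

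HK2 is an immortalised line from the human proximal tubule, grown here under 1 condition. All cultures, for ChIP-seq and RNA-seq alike, had FBS, penicillin-streptomycin and DMSO in DMEM-F12, and there was no treated group. ChIP-seq had 2 replicates for each of the histone marks H3K4me3, H3K27ac and H3K27me3, and RNA was sequenced in 2 libraries. With a single condition there was no treatment to compare, so the genes are described beside all protein-coding genes and without a test. The peak lists give positions without heights, so the depth behind a peak is unknown, and the RNA-seq libraries hold about 5.67 Gb (library 1) and 5.52 Gb (library 2) of aligned sequence, as computed from coverage and FPKM.

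The respiratory chain passes electrons from NADH and succinate to oxygen across the inner mitochondrial membrane and pumps protons as it does so. Complex I oxidises NADH, complex II oxidises succinate, complex III passes the electrons from ubiquinol to cytochrome c, and complex IV hands them to oxygen. Most subunits are encoded in the nucleus, while several membrane-bound subunits of complexes I, III and IV are encoded in mitochondrial DNA, and the proximal tubule in the kidney depends on this chain for the energy of solute reabsorption.

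The nuclear genes were expressed well above the typical gene. Their median level was 33.3 FPKM (fragments scaled by transcript length and by mapped fragments) in library 1 and 34.0 in library 2, against 3.24 and 3.36 over 19646 nuclear protein-coding genes. A gene is called expressed here where each library gave it an FPKM of 1 or more. Of the 71, 62 were expressed (87.3%), compared with 58.8% of all nuclear protein-coding genes. The 61 core and accessory genes were all expressed, and of the 9 in the isoform list only COX6A2 was. By the mean of the libraries, the median was 33.7 over the 71 genes and 11.1 over the 11549 expressed genes. The nuclear genes together held 1.02% and 0.980% of the summed FPKM of protein-coding genes. RNA came from whole cultures, so fewer cells expressing a gene and less RNA per cell cannot be told apart.

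Their promoters carried the marks of active genes. A peak of H3K4me3, a mark of promoters, lay in both replicates within 1 kb of an annotated transcription start (TSS) for 66 of the 71 genes (93.0%), beside 70.3% of all nuclear protein-coding genes. H3K27ac, a mark of active promoters and enhancers, did so for 59 (83.1%), beside 55.0% of all. H3K27me3, a mark of Polycomb repression, did so for 2 (2.82%), beside 11.4% of all. Both active marks in both replicates, with no H3K27me3 in either, were found at 59 genes (83.1%), beside 51.4% of all. Among the 61 core and accessory genes the counts were 61 for H3K4me3, 56 for H3K27ac (91.8%) and 0 for H3K27me3. Expressed genes in general were marked in much the same way. In replicates 1 and 2 taken singly, 98.4% and 98.0% of them had H3K4me3 and 98.0% and 84.6% had H3K27ac. H3K27me3 was found at 3.74% and 3.75% of them.

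**Figure D1:**
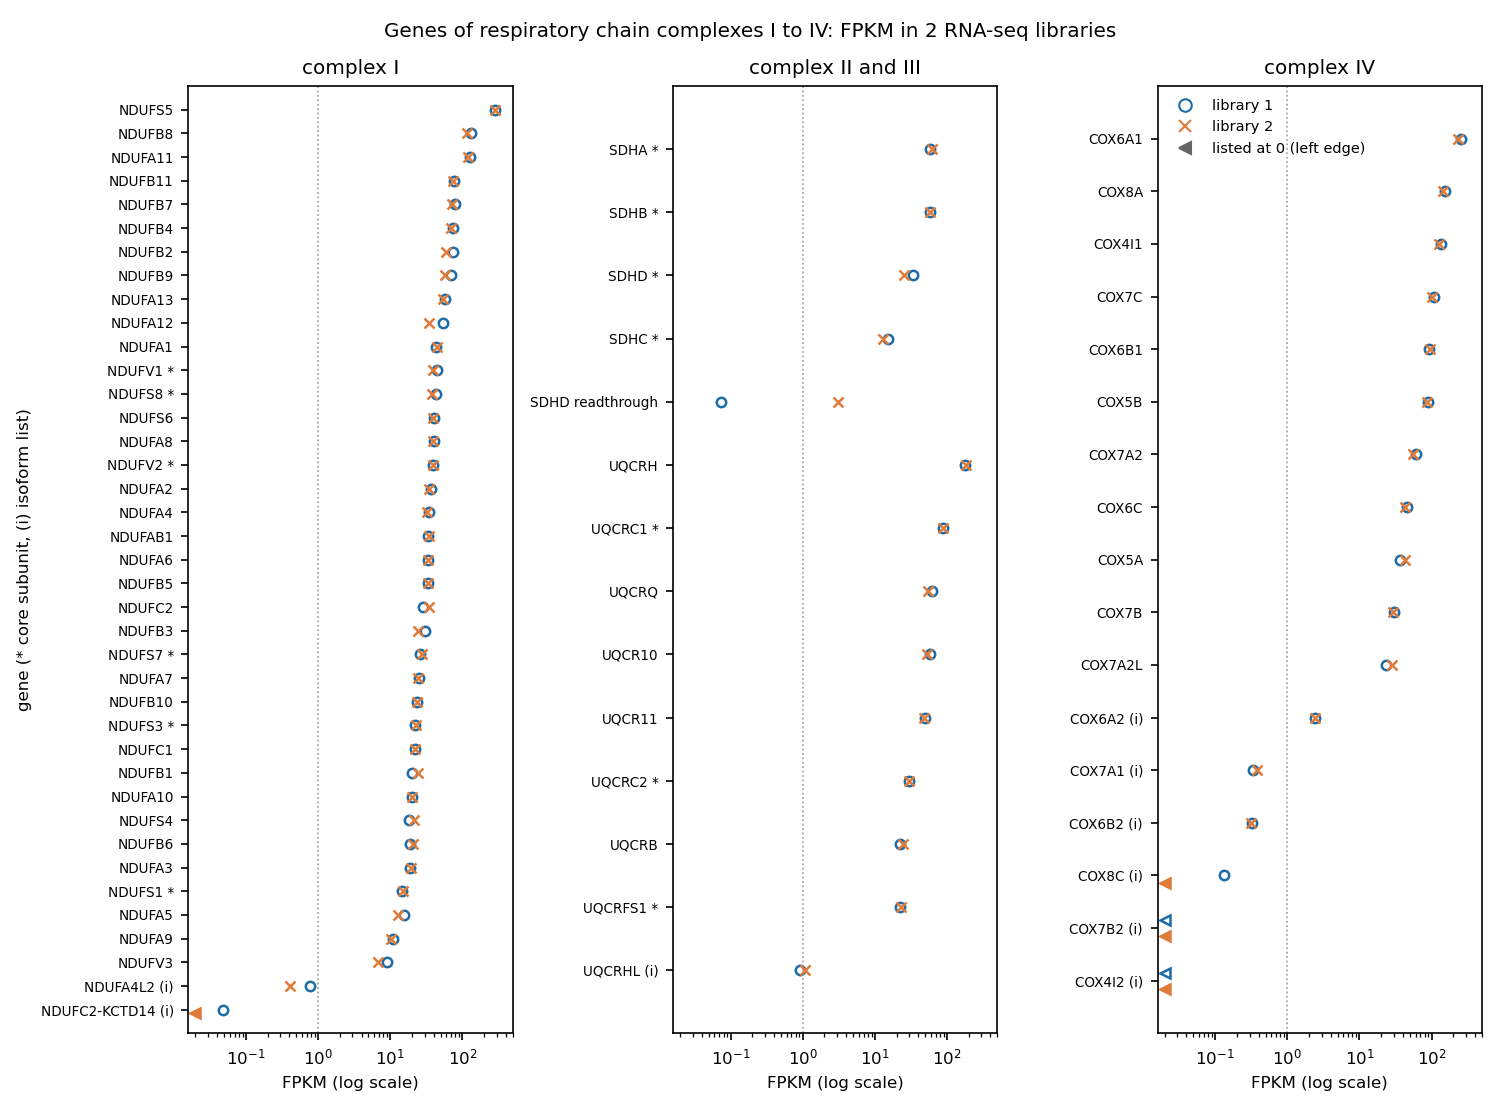
FPKM (log axis) of the nuclear genes shown, in library 1 (circles) and library 2 (crosses), with complexes II and III in a shared panel, asterisks on core subunits and (i) on genes of the isoform list. Triangles at the left edge are genes listed at 0 and the dotted line is an FPKM of 1. The core and accessory genes lay between 7.82 (NDUFV3) and 284 (NDUFS5) by mean, and the isoform list below them.

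Complex I has the most nuclear genes, 40 by name, of which 38 were core or accessory. The median of those 38 was 34.1 FPKM in library 1 and 34.0 in library 2. The 7 nuclear core subunits had a median of 39.4 by mean. The 31 accessory genes, which surround the core and are needed for its assembly and stability, had a median of 33.7 and spanned 36.4-fold.

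NDUFV1, NDUFV2 and NDUFS1 form the part of complex I that takes electrons from NADH. NDUFV1, which binds NADH and the flavin, had an FPKM of 44.0 in library 1 and 39.3 in library 2. NDUFV2, an iron-sulfur protein beside it, had 39.4 in each library. NDUFS1, the largest subunit of this part and the carrier of several iron-sulfur clusters, had 14.6 and 14.8. NDUFS1 was thus the lowest of the core subunits of complex I in both libraries, and its level differed from those of NDUFV1 and NDUFV2 by far more than the libraries differed.

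NDUFS3, NDUFS7 and NDUFS8 belong to the part that passes electrons on to ubiquinone. NDUFS8, which holds iron-sulfur clusters on the way to the ubiquinone site, had 43.3 and 37.4 FPKM. NDUFS7, the carrier of the last cluster, had 25.7 and 27.3, and NDUFS3 had 22.2 and 22.5. NDUFS7 and NDUFS3 were thus lower than NDUFS8 in both libraries. All 7 core genes had H3K4me3 in both replicates, and all but NDUFS7 had H3K27ac in both.

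The promoters of NDUFS7 and NDUFB4 are shown because they hold letters bound by factors of mitochondrial genes next to the TSS. Each sequence printed here was read from GRCh37, the build of the peaks, from 170 bases before the TSS of the canonical transcript, 5′ to 3′ on the strand of the gene, 200 bases long. Capitals mark whole matches, on either strand, to the letters GCGCNTGCG (NRF1), AAGATGGCG (YY1) or CCGGAAGT (ETS factors such as GABPA). NDUFS7 is chr19:1383736-1383935 on the plus strand and NDUFB4 is chr3:120315013-120315212 on the plus strand.
NDUFS7: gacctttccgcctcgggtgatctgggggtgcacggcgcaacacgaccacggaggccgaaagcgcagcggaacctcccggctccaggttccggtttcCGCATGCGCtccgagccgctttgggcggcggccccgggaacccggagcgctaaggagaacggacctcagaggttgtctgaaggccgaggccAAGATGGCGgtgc
NDUFB4: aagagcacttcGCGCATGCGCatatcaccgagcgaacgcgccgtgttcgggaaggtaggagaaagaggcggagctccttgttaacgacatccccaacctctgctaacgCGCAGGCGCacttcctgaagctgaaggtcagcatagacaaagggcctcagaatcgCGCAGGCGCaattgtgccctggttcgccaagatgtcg

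With the TSS as position 0, the YY1 match of NDUFS7 began at 17, and the ATG inside it was the annotated start codon of the canonical transcript. NDUFS7 also had an NRF1 match beginning at -74. NDUFB4, an accessory membrane subunit chosen after its sequence was seen, had 3 separate NRF1 matches, beginning at -159, -62 and -7, and an FPKM of 73.8 and 68.7. A match is a string of letters and does not show that a factor was bound.

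The highest nuclear gene of the whole chain was the accessory subunit NDUFS5, a small protein on the intermembrane side of complex I, with 282 FPKM in library 1 and 286 in library 2. It ranked 144 among nuclear protein-coding genes by mean FPKM, within the top 0.733%. The lowest accessory gene was NDUFV3, a small subunit next to the NADH site, with 8.90 and 6.74. By name, the NDUFB genes, which lie mostly in the membrane arm, had a median of 64.2 (11 genes, mean of libraries), the NDUFA genes 33.7 (14 genes), and the NDUFS genes 33.2 (8 genes). NDUFA4 is in these counts by its name, although the protein is now regarded as a subunit of complex IV.

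NDUFA3, an accessory membrane subunit with 18.8 and 19.4 FPKM, was the only accessory gene of complex I without H3K27ac in both replicates. Its H3K27ac peak of replicate 1 ran from -682 to 768 relative to the TSS, and replicate 2 had none within 1 kb. H3K4me3 peaks covered the TSS in both replicates.

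Complex II, succinate dehydrogenase, is the complex that also works in the citric acid cycle, and all its subunits are nuclear. SDHA, the flavoprotein that oxidises succinate, had 58.6 FPKM in library 1 and 61.4 in library 2. SDHB, the iron-sulfur subunit, had 58.3 and 57.8. The membrane anchors were lower: SDHD had 33.3 and 25.0 and SDHC 15.3 and 13.1. The catalytic pair thus lay above both anchors in each library, and SDHA and SDHB differed from each other by about their spread, with means of 60.0 ± 1.94 and 58.1 ± 0.331 (SD, n = 2). The level of SDHA is uncertain, because its transcribed pseudogenes SDHAP1, with 17.7 and 20.2, and SDHAP3, with 2.30 and 2.63, share much of its sequence.

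All 4 SDH genes had H3K4me3 in both replicates. H3K27ac was found in both at SDHA, SDHC and SDHD. At SDHB an H3K27ac peak of replicate 1 ran from -892 to 1075 relative to the TSS, and replicate 2 had none there, although the gene was among the top 4.94% by FPKM. The readthrough gene that also carries the name SDHD starts 30 bases downstream of the SDHD start. It shared the SDHD peaks and had 0.0730 FPKM in library 1 and 3.11 in library 2, all in a transcript that is not in the annotation used for the TSS positions.

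The promoters of SDHA, SDHB and SDHD are shown because the SDHA sequence repeats the NRF1 letters at an even spacing and the other sequences differ from it in which letters they hold. SDHA is chr5:218265-218464 on the plus strand, SDHB is chr1:17380498-17380697 on the minus strand and SDHD is chr11:111957427-111957626 on the plus strand, with capitals as above.
SDHA: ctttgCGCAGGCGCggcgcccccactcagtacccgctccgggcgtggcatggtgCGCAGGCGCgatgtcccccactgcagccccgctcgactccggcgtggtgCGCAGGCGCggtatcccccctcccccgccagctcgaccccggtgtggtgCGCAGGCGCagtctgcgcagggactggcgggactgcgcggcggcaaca
SDHB: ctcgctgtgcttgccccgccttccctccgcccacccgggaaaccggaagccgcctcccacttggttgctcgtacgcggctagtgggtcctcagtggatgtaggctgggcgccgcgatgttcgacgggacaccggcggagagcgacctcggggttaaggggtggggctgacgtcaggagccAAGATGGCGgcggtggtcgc
SDHD: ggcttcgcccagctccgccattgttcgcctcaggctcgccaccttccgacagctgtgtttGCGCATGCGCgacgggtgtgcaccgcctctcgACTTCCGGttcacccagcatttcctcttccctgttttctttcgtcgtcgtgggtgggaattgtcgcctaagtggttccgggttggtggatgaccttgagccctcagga

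In SDHA the 4 NRF1 matches began at -165, -116, -67 and -18, each 49 bases after the one before. Of the 49 bases from the match at -165 onward, 28 recurred at the same place after the next match. From the match at -116 onward 37 recurred, and from the match at -67 onward 22, the letters of the match itself included each time. Only 9 of the 19646 nuclear protein-coding promoters (0.0458%) held 4 or more separate NRF1 matches, and SDHA was the only one among the 71 genes. SDHB had no NRF1 match and a YY1 match beginning at 10, at its start codon. SDHD had an NRF1 stretch of 10 bases beginning at -110, which matches on both strands, and an ETS match beginning at -78.

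Complex III, the cytochrome bc1 complex, had 9 nuclear genes, of which 8 were core or accessory with a median of 54.2 FPKM in library 1 and 50.8 in library 2. UQCRC1, a core subunit on the matrix side, had 89.3 and 87.4 FPKM, and its partner UQCRC2 had 30.2 and 29.3. UQCRFS1, the Rieske iron-sulfur protein that takes electrons from ubiquinol, had 22.4 and 23.4. The catalytic Rieske subunit was therefore the lowest of the 8 by mean, at 22.9, next to the accessory UQCRB at 23.4, and these neighbours did not differ beyond their spread. UQCRH, the hinge protein that helps cytochrome c to dock, was the highest, with 177 and 181. The pseudogene UQCRFS1P1 had 3.64 and 3.63 FPKM, which bears on how firmly the UQCRFS1 level can be read.

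All 8 genes had H3K4me3 and H3K27ac in both replicates. UQCRH had the widest H3K4me3 peak of the 61 core and accessory genes in replicate 1, at 4304 bp, and 3015 bp in replicate 2. The peak of replicate 1 ran from -2969 to 1334 relative to the TSS. LRRC41, on the opposite strand with 25.2 and 24.3 FPKM, starts 82 bases upstream, so the width does not belong to UQCRH alone. Of the electron carriers outside the rule, CYC1, the cytochrome c1 of complex III, had 74.3 and 73.4 FPKM, and CYCS, the cytochrome c that carries electrons on to complex IV, had 20.1 and 20.3. Both had H3K4me3 and H3K27ac in both replicates.

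The promoters of UQCRFS1, UQCR11 and UQCRH are shown because they differ in these letters, with an NRF1 match alone in UQCRFS1, NRF1 and ETS matches in UQCR11 and an ETS match alone in UQCRH. UQCR11, a small accessory subunit, was chosen after its sequence was seen. UQCRFS1 is chr19:29704029-29704228 and UQCR11 is chr19:1605432-1605631, both on the minus strand, and UQCRH is chr1:46769200-46769399 on the plus strand.
UQCRFS1: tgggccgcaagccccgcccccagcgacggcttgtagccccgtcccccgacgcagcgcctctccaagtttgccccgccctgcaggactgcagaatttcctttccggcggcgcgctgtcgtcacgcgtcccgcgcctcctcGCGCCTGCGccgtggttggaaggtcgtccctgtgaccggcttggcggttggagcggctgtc
UQCR11: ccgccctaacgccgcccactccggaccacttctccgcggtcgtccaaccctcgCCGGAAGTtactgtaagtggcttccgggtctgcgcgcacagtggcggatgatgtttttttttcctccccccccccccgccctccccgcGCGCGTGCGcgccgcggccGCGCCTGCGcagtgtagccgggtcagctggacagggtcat
UQCRH: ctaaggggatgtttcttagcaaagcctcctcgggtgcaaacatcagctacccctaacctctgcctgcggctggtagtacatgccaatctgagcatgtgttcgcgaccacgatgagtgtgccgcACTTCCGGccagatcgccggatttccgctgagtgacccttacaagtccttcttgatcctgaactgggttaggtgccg

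UQCRFS1 had an NRF1 match beginning at -31. UQCR11 had NRF1 matches beginning at -29 and -10 and an ETS match beginning at -117. UQCRH had an ETS match beginning at -47. UQCRHL, an intronless copy of UQCRH, had no peak of any mark near its start, and 0.919 and 1.09 FPKM.

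Complex IV, cytochrome c oxidase, had the highest median of the 4 complexes over core and accessory genes. With its isoform genes included, the median of the library means was 39.3, below the 48.8 of complex III. Its 11 accessory genes, which surround a catalytic core made in the mitochondrion, had a median of 88.0 FPKM in library 1 and 86.0 in library 2. COX6A1, the widely expressed form of a regulatory subunit, was the highest, with 259.8 and 233. COX8A had 152 and 142 and COX4I1, an isoform that takes part in the allosteric control of the enzyme by ATP, had 135 and 128. The lowest was COX7A2L, a COX7A-related protein known for its part in joining complexes III and IV, with 23.6 and 28.0. COX6A1, COX8A and COX4I1 kept this order in both libraries. The processed pseudogene COX6A1P2 had 5.27 and 5.18 FPKM, so the COX6A1 level carries some uncertainty.

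All 11 had H3K4me3 in both replicates, and 9 had H3K27ac in both. The exceptions were COX6A1 and COX6B1, the widely expressed form of a subunit that faces cytochrome c, with 92.3 and 96.5 FPKM. Each had an H3K27ac peak in replicate 1 and none within 1 kb of a TSS in replicate 2. Both lay above the median of the complex, and COX6A1 was its highest gene.

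The promoters of COX5B and COX6A2 are shown as a widely expressed gene with letters for ETS factors and a muscle isoform without them. COX5B, a zinc-binding subunit on the matrix side, was chosen after its sequence was seen. COX5B is chr2:98262355-98262554 on the plus strand and COX6A2 is chr16:31439652-31439851 on the minus strand.
COX5B: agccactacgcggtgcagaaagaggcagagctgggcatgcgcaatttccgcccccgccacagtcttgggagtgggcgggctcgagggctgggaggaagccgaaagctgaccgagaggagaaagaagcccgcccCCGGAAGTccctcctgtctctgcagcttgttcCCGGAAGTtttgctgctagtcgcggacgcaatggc
COX6A2: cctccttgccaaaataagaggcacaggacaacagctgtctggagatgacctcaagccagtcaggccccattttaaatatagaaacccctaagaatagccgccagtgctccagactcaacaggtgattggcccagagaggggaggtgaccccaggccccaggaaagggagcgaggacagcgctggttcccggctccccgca

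COX5B had ETS matches beginning at -37 and -5 and an FPKM of 88.0 and 86.0. COX6A2 had none of the letters marked here.

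The isoform list differed from the rest of the chain in both RNA and marks. Its 9 genes had a median of 0.325 FPKM in library 1 and 0.312 in library 2, and each lay below its widely expressed counterpart in both libraries. H3K4me3 was found in both replicates at 4 of the 9, H3K27ac at 2 and H3K27me3 at 2. The list was written from what is known of these genes in other tissues, so its low level is a description of this cell line beside that knowledge.

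COX6A2, the form of heart and skeletal muscle, was the highest of the list, with 2.45 and 2.43 FPKM. Its counterpart COX6A1 was 106 times higher in library 1 and 96.1 times in library 2. COX6A2 had H3K4me3 and H3K27ac in both replicates and no H3K27me3. It was the only tissue-restricted isoform with both active marks within 1 kb of a TSS. H3K4me3 covered its TSS in both replicates, from -607 to 1418 and from -86 to 1732. Its H3K27ac peak covered the TSS in replicate 1, from -80 to 1003. In replicate 2 the H3K27ac peak lay downstream of the TSS, from 322 to 849. NDUFC2-KCTD14, a readthrough gene that shares the start region of NDUFC2, also had both active marks, but only 0.0476 FPKM in library 1 and was listed at 0 in library 2. NDUFC2, an accessory membrane subunit, had 28.5 and 34.1.

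NDUFA4L2, a relative of NDUFA4 known to be induced by hypoxia, had 0.780 and 0.411 FPKM, beside 34.9 and 32.6 for NDUFA4. COX6B2, the testis form of COX6B1, had 0.325 and 0.312. These 2 genes were the ones with H3K27me3, and both also had H3K4me3 in both replicates and no H3K27ac in either. At COX6B2 both marks covered the canonical TSS: in replicate 1, H3K4me3 ran from -158 to 1247 bases relative to it and H3K27me3 from -345 to 217. At NDUFA4L2 neither mark reached the canonical TSS. In replicate 1, H3K4me3 lay from -3973 to -2179 bases and H3K27me3 from -5856 to -4176 bases relative to it, near an alternative TSS. With the canonical TSS alone, COX6B2 was the only gene left with H3K27me3.

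COX7A1, the muscle form of COX7A2, had 0.330 and 0.385 FPKM, and COX8C, the testis form of COX8A, had 0.132 in library 1 and was listed at 0 in library 2. Each had H3K4me3 in replicate 2 only, in peaks of 332 and 404 bp over the TSS, and neither had H3K27ac or H3K27me3. Peaks this narrow are common in that list. On the 24 chromosomes kept it holds 73505 H3K4me3 peaks with a median width of 434 bp, beside 28615 of 1194 bp in replicate 1. COX4I2, the lung form of COX4I1 that is linked to oxygen sensing, and COX7B2, the testis form of COX7B, were listed at 0 in both libraries and had no peak of any mark. Genes of the list below an FPKM of 1 in both libraries were therefore found with H3K4me3 and H3K27me3, with a narrow H3K4me3 peak in a single replicate, with no mark, or, for NDUFC2-KCTD14, with both active marks at the shared start.

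**Figure D2:**
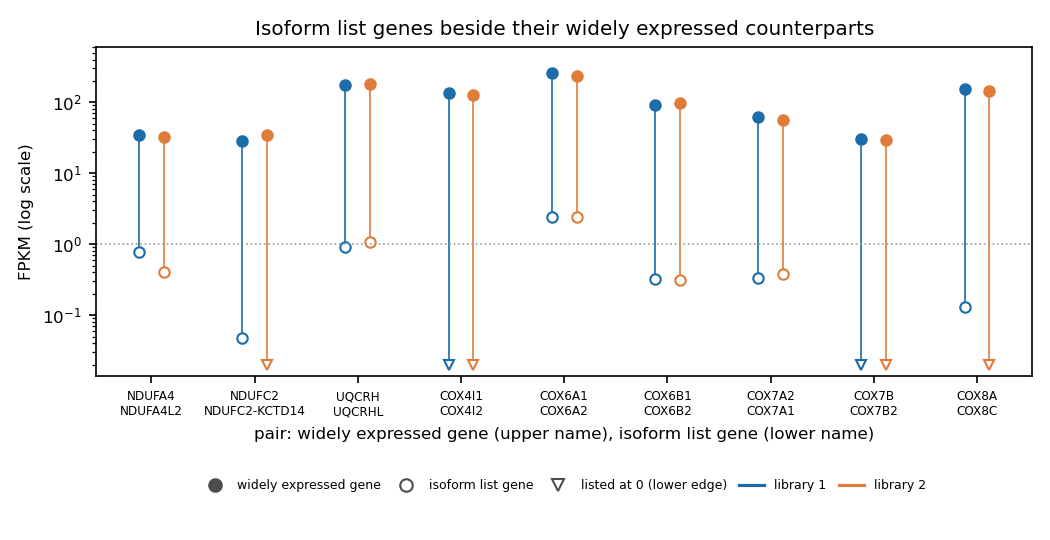
FPKM (log axis) of each isoform list gene (open symbols) and its widely expressed counterpart (filled symbols) in library 1 (blue) and library 2 (orange). Triangles at the lower edge are genes listed at 0 and the dotted line is an FPKM of 1. Each filled symbol lies above its open partner in both libraries, and COX6A2 is the only open symbol above 1 in both.

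The 11 mitochondrial genes encode the membrane core of complex I (MT-ND1, MT-ND2, MT-ND3, MT-ND4, MT-ND4L, MT-ND5 and MT-ND6), cytochrome b of complex III (MT-CYB) and the catalytic subunits of complex IV (MT-CO1, MT-CO2 and MT-CO3). All 11 were listed at 0 in both libraries. So were the other genes of the mitochondrial chromosome, 37 in all, 13 of them protein-coding. Their share of the summed FPKM of the chain was therefore 0, and a ratio between libraries carries no information for them. None of the 6 peak lists held a peak on the mitochondrial chromosome.

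Copies of mitochondrial genes in the nuclear genome did have values. On chromosome 1, from 564442 to 570302 in GRCh37, lies a run of 7 such copies that are 96.8% to 98.6% identical to their sources over the shorter of the pair. MTCO1P12, a copy of MT-CO1 with 21 differing bases, had 521 and 516 FPKM, and MTND2P28, a copy of MT-ND2, had 398 and 397. MTCO3P12 had 109 and 116, MTND1P23 had 37.3 and 35.5, and MTCO2P12 had 10.7 and 13.7. The highest was MTATP6P1, a copy of a gene of the ATP synthase, with 959.6 and 904, and the overlapping MTATP8P1 had 11.1 and 27. MTND2P28, MTCO1P12 and MTATP6P1 thus stood above the highest nuclear gene of the chain, while the genes they were copied from were listed at 0.

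Of 392 such copies listed across the nuclear genome, 8 had an FPKM of 1 or more in library 1 and 8 in library 2. Together the copies summed to 2053 and 2016 FPKM, of which the 7 copies made up 2047 and 2009. That was 0.566% and 0.561% of the FPKM of all genes, beside sums of 3527 and 3373 for the 71 nuclear genes of the chain. The origin of the fragments counted at these copies was not tested, and the level of the mitochondrial genes cannot be read from these data.

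**Figure D3:**
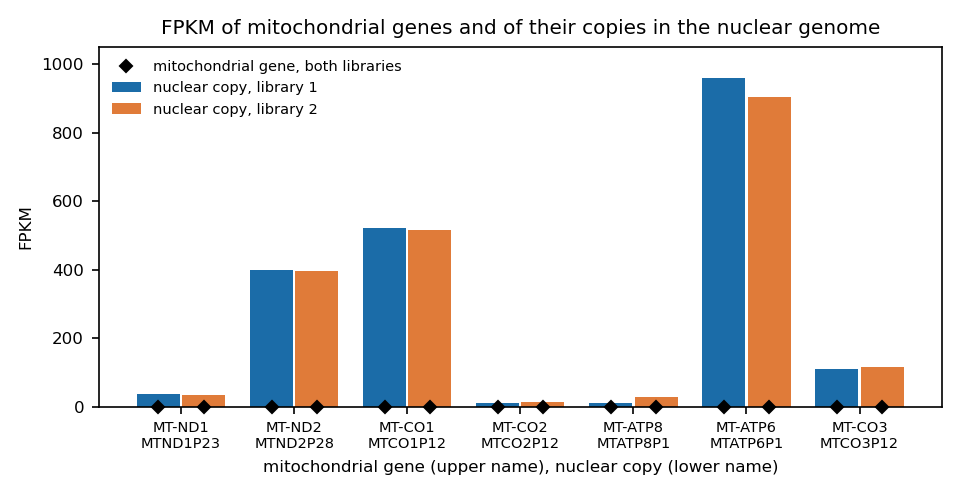
FPKM of 7 nuclear copies of mitochondrial genes in library 1 (blue bars) and library 2 (orange bars), with the mitochondrial gene of each copy as black diamonds. The diamonds lie at 0 in both libraries and the bars reach 959.6 at MTATP6P1.

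The marks lay around the TSS of the core and accessory genes in a regular way. In replicate 1 both H3K4me3 and H3K27ac peaks covered the canonical TSS of all 61 genes. In replicate 2, H3K4me3 covered it in 60 and H3K27ac in 32 (52.5%). H3K27ac of replicate 2 dipped just upstream of the start: a peak covered the position 100 bases upstream in 42.6% of the genes, the position 350 bases upstream in 54.1% and the position 200 bases downstream in 85.2%. Over all nuclear protein-coding genes the same replicate gave 22.2%, 29.0% and 44.2% at these positions, so the dip was not particular to the chain. The requirement of a peak over the TSS itself lowered the H3K27ac count of the 71 genes from 59 to 43, and peaks of at least 500 bp were found in both replicates at 40.

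The promoter peaks of the chain were narrower by median than those of expressed genes in all 4 lists of the active marks. The median of the widest H3K4me3 peak within 1 kb of a TSS was 2198 bp in replicate 1 and 1280 bp in replicate 2 over the core and accessory genes, beside 2447 and 1535 bp over all expressed genes. For H3K27ac the medians were 1775 and 768 bp, beside 2184 and 978 bp. The genes of the chain thus had a higher median FPKM than the expressed genes and a narrower widest peak by median. The widest peak may lie away from the canonical TSS, and several peaks give more chances of a wide peak. In replicate 1, several H3K4me3 peaks were found at 4 of the 61 genes and 1955 of the 11549 expressed genes. In replicate 2 the counts were 18 and 3338. For H3K27ac they were 8 and 3174 in replicate 1, and 12 and 3695 in replicate 2. The part of this in the widths was not tested.

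**Figure D4:**
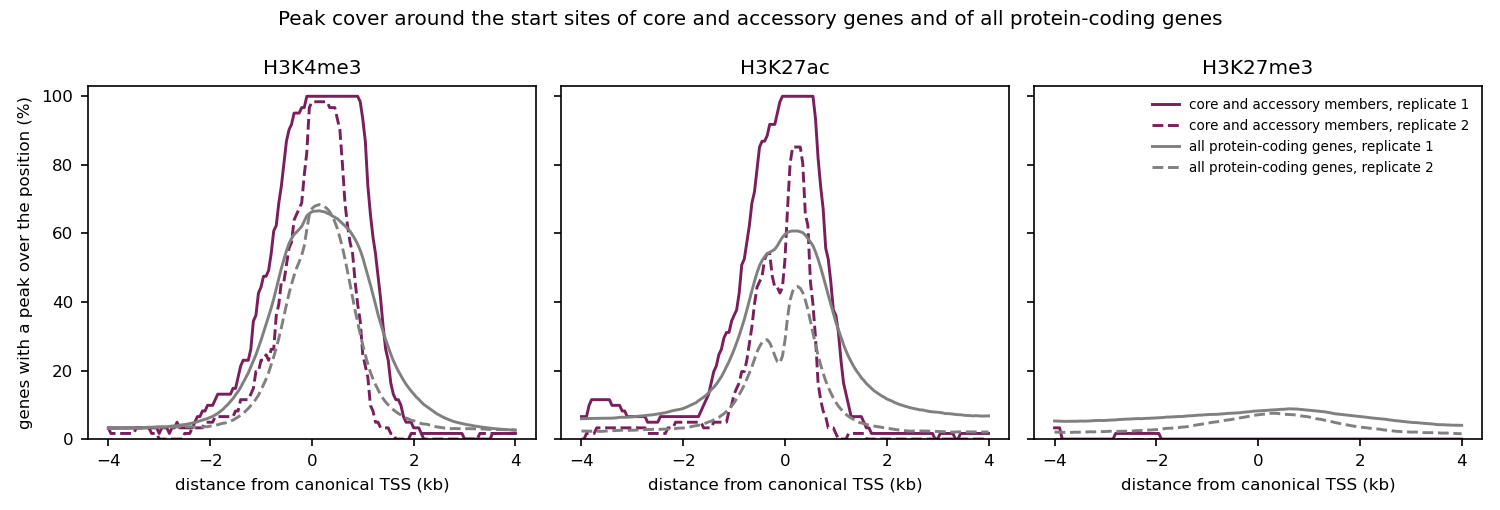
Share of genes (%) with a peak over each position from 4 kb upstream to 4 kb downstream of the canonical TSS, for the 61 core and accessory genes (purple) and all nuclear protein-coding genes (grey), in replicate 1 (solid) and replicate 2 (dashed). H3K4me3 and H3K27ac of replicate 1 reach 100% at the TSS for the 61 genes, H3K27ac of replicate 2 dips to 42.6% at 100 bases upstream of it, and H3K27me3 is at 0 at the TSS.

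The 5 core and accessory genes without H3K27ac in replicate 2 were NDUFA3, NDUFS7, SDHB, COX6A1 and COX6B1. In that replicate, H3K27ac was found within 1 kb of a TSS at 91.8% of the 61 genes, 84.6% of all expressed genes and 55.1% of all nuclear protein-coding genes. Replicate 2 thus lacked H3K27ac peaks at other expressed genes as well.

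NRF1, GABPA and YY1 are transcription factors known to act on genes of the respiratory chain, which is why their letters were searched in every promoter, on both strands, from 250 bases before to 50 after the canonical TSS. An NRF1 match was found in 21 of the 71 genes (29.6%), beside 10.9% of all nuclear protein-coding genes and 16.0% of the expressed ones. A YY1 match was found in 9 (12.7%), beside 2.87% and 4.55%. An ETS match was found in 10 (14.1%), beside 6.14% and 9.50%. The readthrough gene named SDHD shares the NRF1 and ETS matches of SDHD, and the 61 core and accessory genes alone gave 19 with an NRF1 match (31.1%), 9 with a YY1 match (14.8%) and 9 with an ETS match (14.8%). At least 1 of these was found in 31 of the 61 core and accessory genes (50.8%) and in 18.1% of all, and no matches of different motifs overlapped in the 61. About as many of the 61 promoters therefore lacked all of these letters as held any.

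All 9 YY1 matches lay on the strand of the gene, beginning 10 to 25 bases after the TSS, and in all 9 the ATG within AAGATGGCG was the annotated start codon. They included those of NDUFA6, NDUFA7, NDUFA9, NDUFB8, NDUFS4, NDUFS7, SDHB and UQCRC1. Among 563 protein-coding genes with these letters in the window, 367 had them after the TSS on the strand of the gene and 262 (46.5%) had the start codon in them. These genes of the chain therefore have their start codon close to the TSS, in letters that are also those of YY1.

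Letters of general promoter elements were searched too. GGGCGG, the letters of SP1, was found in 42 of the 71 (59.2%), beside 61.6% of all and 76.5% of the expressed genes. CCAAT was found in 22 (31.0%), beside 36.0% and 36.5%. TATAAA, the letters of the TATA box, was found in 6 (8.45%), beside 9.69% and 4.70%. TCAAGGTCA, the letters of the estrogen-related receptors, was found in 2 (2.82%), beside 0.199%, but the 2 are SDHD and the readthrough gene of that name, which share a single match. The promoters were rich in CpG: the median ratio of observed to expected CpG was 0.859 for the 61 genes, 0.866 for all expressed genes and 0.533 for the isoform list. Their median GC content was 60.3%, beside 67.0% for all expressed genes.

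**Figure D5:**
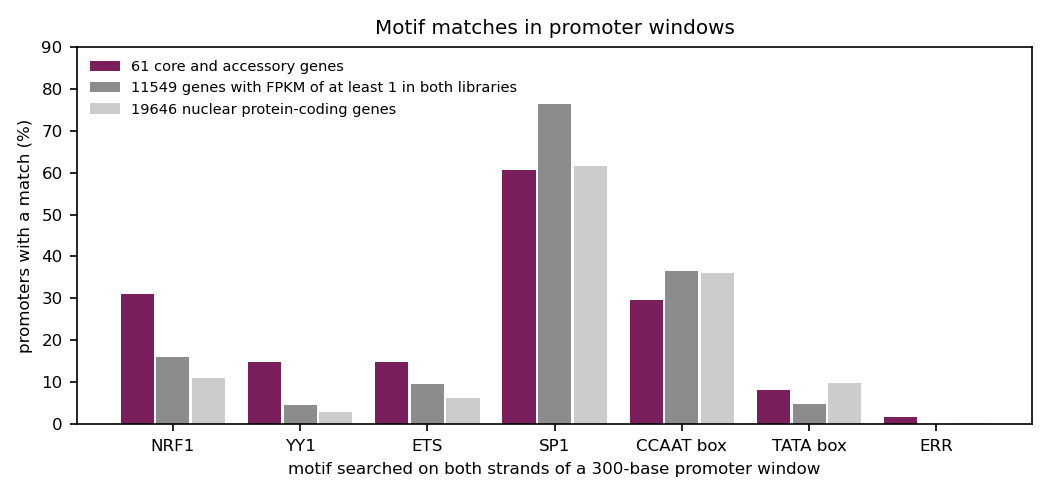
Share of promoter windows (%) with a match to each motif, for the 61 core and accessory genes (purple), all expressed genes (dark grey) and all nuclear protein-coding genes (light grey). NRF1, YY1 and ETS matches stand at 31.1%, 14.8% and 14.8% in the 61 genes, and SP1 and CCAAT matches lie below the shares of all expressed genes.

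Many of the genes share a promoter region with a neighbour. A protein-coding gene on the opposite strand had its TSS within 1 kb upstream at 20 of the 71 (28.2%), beside 9.31% of all nuclear protein-coding genes. SDHD and the readthrough gene of that name have the same neighbour, and the count was 19 over the 61 core and accessory genes. The neighbour of SDHD was TIMM8B, an import chaperone of the mitochondrial intermembrane space, 117 bases away with 5.56 and 4.88 FPKM. The neighbour of NDUFB5 was MRPL47, a protein of the mitochondrial ribosome, 156 bases away with 24.8 in each library. The neighbours were not all mitochondrial or active: NDUFA7 lay 121 bases from RPS28, a cytosolic ribosomal protein with 181 and 172, and UQCRQ lay 173 bases from GDF9, an oocyte growth factor with 0.0130 and 0.0206. All neighbours named here were picked with their values known. The 71 genes themselves were spread over 21 chromosomes, with up to 11 on a chromosome and 3 on X.

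The libraries gave similar levels for the chain. Of the 61 nuclear genes whose libraries averaged an FPKM of 5 or more, 22 were higher in library 2 and 39 lower, with a median log2 ratio of -0.04, and 7 (11.5%) differed by more than 1.2-fold, beside 18.4% of all nuclear protein-coding genes at that level, of which 4379 were higher and 4353 lower with a median of 0.00. Over all 71 genes the median log2 ratio was -0.03. Among the 61, the largest difference was at NDUFA12, an accessory subunit, with 53.6 FPKM in library 1 and 34.6 in library 2 (log2 ratio -0.62). SDHD followed at -0.40 and NDUFV3 at -0.36. Below that level, the readthrough gene named SDHD differed more, with a log2 ratio of 1.94. With 2 libraries of 1 condition these ratios describe spread and nothing else.

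The split among transcripts was less steady than the gene sums. Of the 62 expressed genes, 57 had the same largest transcript in both libraries, and in 47 it was the canonical one in both. The largest transcript held a median of 80.6% of the FPKM of the gene in library 1 and 76.9% in library 2. The 5 genes whose largest transcript changed were NDUFC1, NDUFS1, NDUFS4, NDUFS7 and SDHA. In NDUFS4, an accessory subunit whose loss is a known cause of Leigh syndrome, a transcript annotated for nonsense-mediated decay had 10.9 FPKM in library 1 and was listed at 0 in library 2, while the canonical one had 4.75 and 16.6. The canonical SDHA transcript had 16.9 and 2.40, although the sum over the gene was 58.6 and 61.4. In NDUFS4 and SDHA, levels of single transcripts therefore moved far more between libraries than the gene sums did. In NDUFS1 the change was a near tie, with 6.49 and 7.15 for the canonical transcript and 6.97 and 6.31 for the other main transcript.

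Pseudogenes of the nuclear genes were mostly listed at 0. Of 111 named after a gene of the chain, 87 were so in both libraries and 4 were expressed, namely SDHAP1, SDHAP3, UQCRFS1P1 and COX6A1P2. All 111 summed to 32.8 and 35.4 FPKM. The 3 antisense RNAs left out by gene type were low as well: NDUFA6-AS1 had 2.02 and 2.34, NDUFB2-AS1 had 0.599 and 0.569, and NDUFV2-AS1 had 1.01 and 0.574.

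Other genes of oxidative metabolism, from lists written for this work, are given beside the chain. The 18 genes of the ATP synthase, which uses the proton gradient made by the chain, all had H3K4me3 and H3K27ac in both replicates, and their median FPKM was 75.6, from ATP5D at 25.3 to ATP5B, the catalytic beta subunit, at 222. The 45 assembly factors, which build the complexes but are not part of them, also all had both marks in both replicates. Their median was 10.5, from LYRM7 at 1.31, a chaperone of the Rieske protein, to COA3 at 38.3, a factor of complex IV. Builders of the chain were thus expressed below its subunits, by median 10.5 against 40.0 for the 61 core and accessory genes.

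Of 16 regulators of mitochondrial genes, 16 had H3K4me3 in both replicates, 15 had H3K27ac and 14 were expressed. Of the factors behind the searched letters, NRF1 had 6.88 and 7.54 FPKM, GABPA 5.92 and 7.10, and YY1 31.8 and 27. TFAM, which packs and transcribes mitochondrial DNA, had 17.4 and 17.5. The coactivator PPARGC1A had 3.01 and 3.08, and its relative PPARGC1B, the gene without H3K27ac, had 0.437 and 0.326. ESRRA, an orphan receptor of oxidative metabolism, had 7.13 and 7.61, while its relative ESRRG had 0.00954 and 0.00981. ESRRG was the only regulator with H3K27me3, beside H3K4me3 and H3K27ac. Each mark was counted at any TSS of the gene, so these marks need not lie at the same TSS.

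Of 19 genes of mitochondrial fatty acid oxidation, the main fuel of the proximal tubule in the kidney, 18 were expressed, with a median of 25.6 FPKM over the list. All 19 had H3K4me3 in both replicates and 16 had H3K27ac in both. Of the others, ETFA and SLC25A20 had H3K27ac in replicate 1 only and ACADL in neither. The highest was ACADVL, the dehydrogenase of very long chains, with 137 and 116. The lowest was ACADL, the dehydrogenase of long chains, listed at 0 in library 1 with 0.0214 in library 2, and it was the only gene of the list with H3K27me3, in both replicates. Of 17 genes of glycolysis, 16 were expressed. Their list had a median of 289.6 FPKM, above the medians of the lists given before it. GAPDH was the highest, with 5359.7 and 5362, and ALDOC, the brain form of aldolase, the lowest, with 0.542 and 0.516 and no H3K4me3 peak in either replicate.

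Markers showed how far the line resembles its tissue. Of 15 proximal tubule markers, 5 were expressed, the highest being PAX8, a renal lineage factor, with 100.2 and 104. LRP2, HNF4A, SLC22A6 and SLC22A8, which help to define the differentiated tubule, were listed at 0 in both libraries. The list summed to 253.1 and 244.8 FPKM. Of 6 epithelial markers 5 were expressed, with KRT8 highest at 179 and 184. The exception was CDH1, which encodes E-cadherin, with 0.210 and 0.283. CDH1 had H3K27me3 in both replicates beside H3K4me3 and H3K27ac, though not necessarily at the same TSS. The 5 include CDH2, which encodes N-cadherin and is not specific to epithelia, with 59.3 and 59.7. Of other cell types, 2 of 5 podocyte markers were expressed, SYNPO with 14.7 and 16.2 and PODXL with 4.41 and 5.85, 1 of 4 leukocyte markers, CD68 with 42.5 and 36.8, and 1 of 5 fibroblast markers, COL1A1 with 40.3 and 39.9. None of 5 markers of the loop of Henle and collecting duct or of the 3 endothelial markers found was expressed, and PTPRC and COL1A2 were listed at 0 in both libraries. A listed 0 is not by itself an absence of RNA in these data, as the mitochondrial genes show, and the part of the state of the line in the levels of the chain was not tested.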

How the data were processed

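HK2 cells were profiled by ChIP-seq of H3K4me3, H3K27ac and H3K27me3 (2 replicates each) and by RNA-seq (2 libraries). For ChIP-seq, the authors used Bowtie2 (hg19) and MACS2, and each deposited list holds the chromosome, start and end of its peaks. The replicate whose label has no number was taken as replicate 1. The authors mapped RNA-seq reads with HISAT2, and per the file headers StringTie 1.3.3 with GENCODE version 27 gave FPKM, TPM and coverage per transcript. Input DNA and HiChIP were not analysed here.

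FPKM was summed over the transcripts of a gene. Genes were joined by Ensembl identifier to GENCODE version 44 on GRCh37, which gave gene types and TSS positions, and a mark counted where a peak lay within 1 kb of any TSS. Log2 ratios used a pseudocount of 1. Sequences came from GRCh37, and motifs were exact letters. Python 3.11.15, numpy 2.4.6, edlib 1.3.9.post1 and matplotlib 3.10.9 were used, and the steps were checked on simulated data. No test was run over genes. Alternatives changed the TSS window, peak width, replicates, unit, threshold and gene set.

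The members and lists were chosen with earlier results of these data known. Genes were named by rule: mitochondrial, SDH and core genes, the highest and lowest of each complex and list, the isoform list with its counterparts, genes lacking an active mark or with H3K27me3, and the 3 that differed most between libraries. Exceptions are stated where they occur, and the transcripts, pseudogenes, antisense RNAs and sequence features were chosen after their values were seen.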

Additional observations from a re-analysis of the deposited data

How the results depend on the processing

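Of 42 alternatives computed for the nuclear genes, 32 stayed within the limit set for their kind, which for counts is 1.5-fold of the reported value and for the median FPKM is 1 SD between the libraries. For the median log2 ratio, any change in the printed digits was taken as past the limit. All alternatives of the H3K4me3 count, the H3K27ac count and the count with an FPKM of at least 1 stayed within the limit for counts. The mitochondrial genes were listed at 0 throughout, so their 11 alternatives could not move and are not counted. The count of 2 nuclear genes with H3K27me3 in both replicates became 1 with a peak over the TSS itself, 1 with a window of 500 bp, 1 with the TSS of the canonical transcript only and 0 without the isoform list. The median FPKM of 33.7 for nuclear genes became 24.8 with the largest transcript of each gene and 39.7 without the isoform list, and with TPM, a unit on another scale, the median was 93.2. The median log2 ratio of -0.03 became -0.02 with TPM, -0.04 with a pseudocount of 0.1 and -0.04 for members with mean FPKM of at least 5. No mitochondrial gene reached a mean FPKM of 5, so that alternative gave no value for them. Leaving out a replicate or library in turn gave 66 to 68 genes with H3K4me3, 59 to 64 with H3K27ac, 2 to 2 with H3K27me3, 62 to 64 with an FPKM of at least 1 and a median FPKM of 33.3 to 34.0. No paired analysis was possible because the study has 1 condition. Peak heights and read depth at single promoters are unknown here, so a missing peak is no measure of how little of a mark was there.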
